A study of Mus musculus with 10 samples.

Results

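The 10 genes Lpl, Angptl4, Gpihbp1, Cd36, Fabp4, Fabp5, Mgll, Aqp7, Aqp1 and Plin2 code for proteins that split circulating triglyceride, take up the fatty acids and glycerol that are released, and hold lipid inside the cell. They were chosen by symbol, and all 10 were found among the 14623 genes of the table. The cells were the stromal vascular fraction (SVF) of inguinal white adipose tissue (iWAT), which is what remains of fat after collagenase digestion once the floating adipocytes are gone. They came from 1 Bbs8 KO mouse and 1 Bbs8 WT mouse, both lean and 7 weeks old, with no treatment named for either. Bbs8, listed in the table as Ttc8, codes for a subunit of the BBSome, a complex that carries membrane proteins in and out of the primary cilium. The study asked how loss of this subunit changes the cells of lean fat. The comparison of the mice addresses where the lipid uptake genes were expressed and at what level in each mouse.

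Fat takes up lipid at the wall of its capillaries. Lipoprotein lipase (LPL) is made by parenchymal cells, is carried across the endothelium and held on its luminal face by GPIHBP1, and splits the triglyceride of passing lipoproteins, while ANGPTL4 inactivates it. CD36 and the fatty acid binding proteins FABP4 and FABP5 then move fatty acids into and through the cell, monoglyceride lipase (MGLL) and the aquaglyceroporin AQP7 deal with monoglyceride and glycerol, AQP1 is a water channel of capillaries, and PLIN2 coats lipid droplets.

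The labels list 5 samples per genotype, and the series text names 1 mouse per genotype, so the samples were treated as technical libraries. The KO mouse gave 8985 cells and 3144195 unique molecular identifiers (UMIs, each a tag for 1 captured mRNA molecule), and the WT mouse 1929 cells and 715989 UMIs. A median cell held 251 UMIs in the KO and 278 in the WT. With 1 mouse per genotype no test over animals could be made, and a difference between genotypes cannot be told apart from a difference between these mice or their preparations. Levels are given as CPM, the UMIs of a gene per 1000000 UMIs of the cells summed, with exact Poisson 95% intervals that cover counting error only. The cells carry 10 set codes, and values by barcode set are always listed in the order KO5_p2, KO5_p3, KO6_p1, KO6_p2 and KO6_p3 for the KO and WT3_p1, WT3_p2, WT3_p3, WT4_p2 and WT4_p3 for the WT. Of all barcodes, 36 occurred in more than 1 set, in 103 cells, and 28 of them only in sets that share the first part of the code (KO5, KO6, WT3 or WT4), while 7 occurred in both mice. In KO6_p2, 924 cells formed a cluster that held only 4 cells of other sets. Ttc8 itself was at 0 UMIs in the KO, which allows up to 0.954 CPM, and at 5 UMIs in the WT, all in 1 set, so it was a weak check of the labels.

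Cells were clustered without the 10 genes and classes were named from marker lists. The P1-like, P2-like and P3-like classes are stromal cells with the markers of interstitial progenitors, committed preadipocytes and a further progenitor type. The P2-like class held 746 KO and 288 WT cells, the endothelial-like class 649 and 192, and the macrophage-like class 589 and 134. The limits for naming were chosen once the clusters were known, and cells without leading markers made up 38.5% of the KO and 25.8% of the WT cells. In endothelial-like cells the summed endothelial list was at 10519 CPM in the KO and 9510 CPM in the WT, with all 10 markers detected in both. B cell-like cells, which should lack most of these genes, served as a measure of free RNA and had a median of 274.5 UMIs in the KO and 252.5 in the WT. Of the genes of adipocytes, Adipoq was at 2.86 CPM in the KO and at 0 UMIs in the WT, which allows up to 4.19 CPM. Pck1, with 17 UMIs, and Lep and Retn, with 3 each, were also seen in the KO and at 0 UMIs in the WT. The KO levels were 5.41 CPM (3.15 to 8.66) for Pck1 and 0.954 CPM each for Lep and Retn. None was separated from the 4.19 CPM that the WT count of 0 allows. Car3 was lower in the KO over all cells, at 127 CPM (115 to 140.3) against 184 CPM (154 to 219), Thrsp higher, at 42.6 CPM (35.7 to 50.5) against 16.8 CPM (8.66 to 29.3), and Cfd about level, at 23.9 and 25.1 CPM. In endothelial-like cells Car3 was at 273 CPM (213 to 344) in the KO and 80.5 CPM (26.1 to 188) in the WT, and Thrsp at 261 CPM (203 to 331) and 145 CPM (66.2 to 275). The part of adipocyte RNA in the results was not tested.

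The promoters of members are shown for a motif that links the lipid uptake genes in the textbook account. Heterodimers of peroxisome proliferator-activated receptors and retinoid X receptors bind repeats of the half-site AGGTCA. RefSeq promoters (GRCm38.p6, the build known as mm10), which run from 250 bases before to 50 after a start, were at hand for 5 members, with 7 windows. The half-site AGGTCA, searched on both strands, lay in 4 of the 7 windows, of the members Cd36, Aqp7 and Plin2, and in 16.3% of 32851 promoters of that length. Both Aqp7 windows were among the 4, and they overlap and share a match, so they are not separate promoters. The half-site was not found in the windows of Aqp1 and Mgll. Of the other letters searched on both strands, GGGCGG lay in 5 of the windows (35.7% of all promoters), CCAAT in 2 (37.4%), GGAAGT in 1 (23.8%) and TATAAA in 0 (13.6%). The windows are printed 5′ to 3′ on the strand of the gene, with the half-sites in capitals. They stand as TGACCT because every match lay on the opposite strand. The windows are chr5:17835847-17836146 for Cd36, chr4:41047913-41048212 for Aqp7 and chr4:86670010-86670309 for Plin2, all on the minus strand.
Cd36: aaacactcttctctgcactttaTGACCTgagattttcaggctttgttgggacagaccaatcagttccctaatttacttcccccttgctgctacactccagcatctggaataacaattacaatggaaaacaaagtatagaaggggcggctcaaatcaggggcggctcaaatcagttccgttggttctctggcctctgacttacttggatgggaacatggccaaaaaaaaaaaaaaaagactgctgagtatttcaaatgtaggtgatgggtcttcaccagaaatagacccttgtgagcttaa
Aqp7: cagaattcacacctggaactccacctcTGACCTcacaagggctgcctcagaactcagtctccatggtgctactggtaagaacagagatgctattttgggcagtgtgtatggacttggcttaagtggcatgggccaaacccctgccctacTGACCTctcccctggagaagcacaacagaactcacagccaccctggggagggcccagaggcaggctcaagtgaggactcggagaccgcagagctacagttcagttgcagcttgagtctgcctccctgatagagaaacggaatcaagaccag
Plin2: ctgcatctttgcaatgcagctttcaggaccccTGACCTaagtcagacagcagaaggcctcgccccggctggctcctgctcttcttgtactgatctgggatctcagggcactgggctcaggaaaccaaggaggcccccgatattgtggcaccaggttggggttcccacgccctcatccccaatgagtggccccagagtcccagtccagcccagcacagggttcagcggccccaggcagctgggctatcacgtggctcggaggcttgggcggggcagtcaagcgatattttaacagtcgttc
Of these 3, Cd36 and Plin2 had 1 match in the window and Aqp7 had 2 in the window printed. These letters are a description of the windows and say nothing of binding in these cells.

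Over both mice, 7 of the 10 genes were at their highest level in endothelial-like cells, 2 in P2-like cells and 1 in macrophage-like cells. Endothelial-like cells held 71.8% of the UMIs of Aqp7, 65.1% of Aqp1, 63.9% of Mgll, 61.0% of Gpihbp1, 56.0% of Cd36, 49.4% of Fabp4 and 43.3% of Fabp5. The KO gave most of these UMIs, and the shares differed by mouse for Gpihbp1, at 59.3% (55.7 to 62.8) in the KO and 72 of 96 UMIs (65.1% to 83.3%) in the WT, and for Fabp5, at 37.9% (30.2 to 46.1) and 67.6% (49.5 to 82.6). The other 5 lay between 48.3% and 70.9% in the KO and between 52.5% and 78.6% in the WT. P2-like cells held 42.5% of the UMIs of Lpl and 33.2% of those of Angptl4. Lipase and its inhibitor were thus highest in the committed preadipocyte class, and the anchor, uptake and channel genes in the capillary class.

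**Figure D1:**
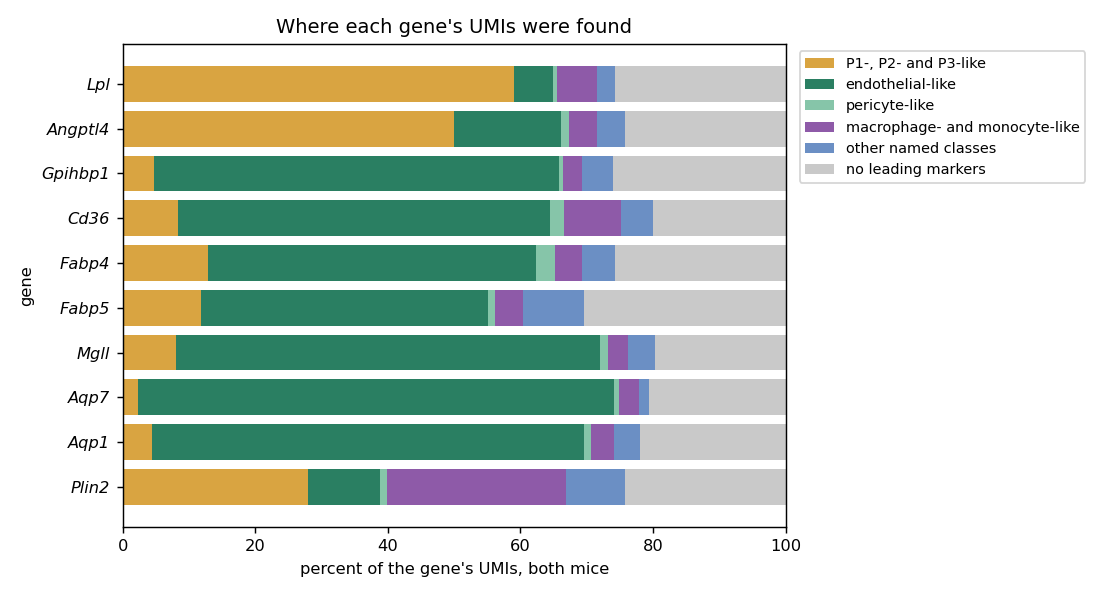
Share of the UMIs of each gene (x axis, percent, both mice together) found in groups of cell classes (colours). Endothelial-like cells hold most of the UMIs of Aqp7, Aqp1, Mgll, Gpihbp1 and Cd36, whereas the P1-, P2- and P3-like classes hold most of those of Lpl.

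**Figure D2:**
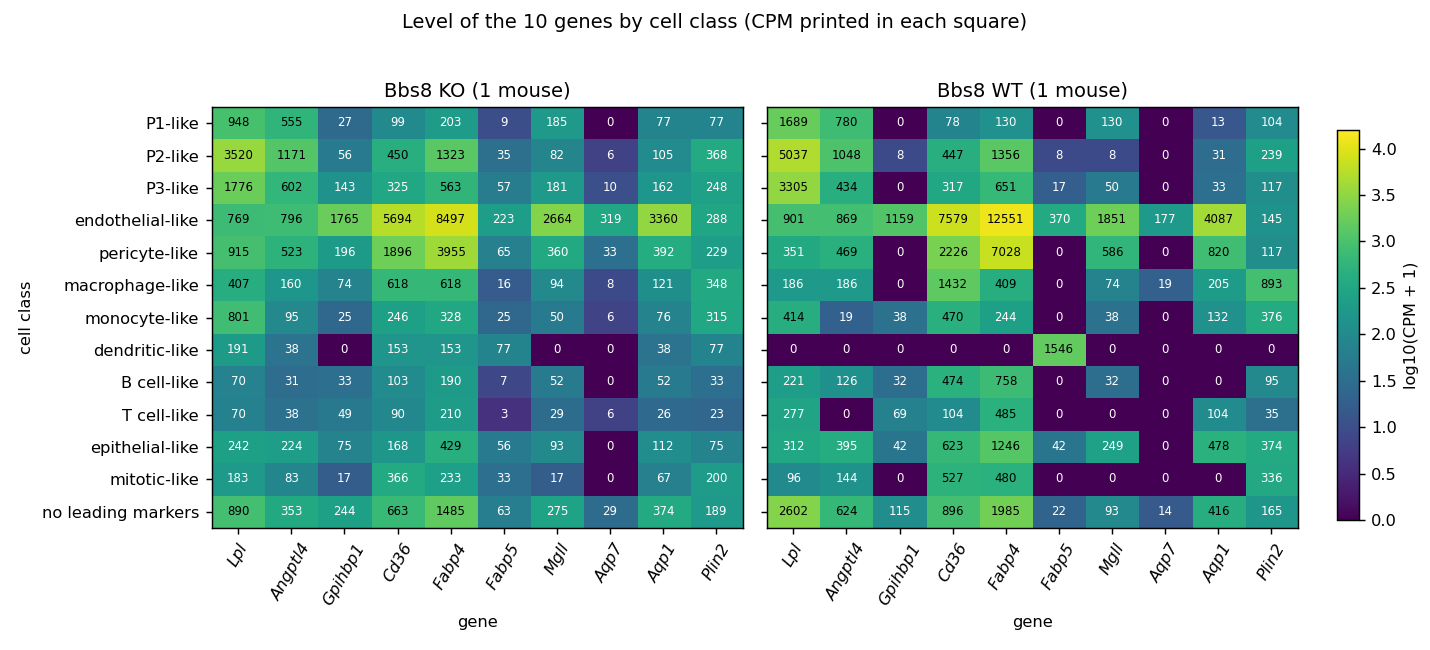
Level of each gene (columns) in each cell class (lines of squares) of the KO mouse on the left and the WT mouse on the right, as CPM printed in the squares, with colour for log10(CPM + 1). Fabp4 reaches 8497 CPM in KO and 12551 CPM in WT endothelial-like cells, and Lpl 3520 and 5037 CPM in P2-like cells.

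Lpl (chr8:68880491-68907448, plus strand), the lipase, fell in order from P2-like cells at 3937 CPM (3760 to 4120) through P3-like cells at 2333 CPM (2105 to 2578) to P1-like cells at 1139 CPM (1021 to 1266), over both mice. The intervals of these 3 stromal classes did not overlap. Endothelial-like, pericyte-like and monocyte-like cells followed at 794, 792 and 704 CPM, with intervals that did overlap. Their order was not the same in both mice, at 769, 915 and 801 CPM in the KO and 901, 351 and 414 CPM in the WT. Lpl was far lower in lymphocytes, at 80.9 CPM in B cell-like and 85.9 CPM in T cell-like cells. There too the KO was lower, at 70.5 against 221 CPM in B cell-like and 69.9 against 277 CPM in T cell-like cells. The WT values rested on 7 and 8 UMIs, and the difference between classes was not tested. P2-like cells stood 49.95-fold above B cell-like cells in the KO (34.8 to 74.4) and 22.8-fold in the WT (10.998 to 56.9).

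In P2-like cells the KO mouse had the lower Lpl level, at 3520 CPM (3324 to 3724) against 5037 CPM (4659 to 5439) in the WT. Lpl was at 3018, 2828, 4102, 4296 and 3408 CPM in the KO sets. The WT sets held Lpl at 3779.9, 4918, 5943, 5244 and 5090.2 CPM. The ranges overlapped, since KO6_p1 and KO6_p2 lay above WT3_p1, while the other 3 KO sets lay below every WT set. The log2 ratio of KO over WT, taken after adding 5 CPM to both, was -0.52, and the plain ratio had an exact conditional 95% interval of 0.635 to 0.770. Within sets of the same p number it was 0.12 in p1, -0.54 in p2 and -0.79 in p3. Its size rested on how the cells were grouped and scaled. It was -0.96 at a clustering resolution of 0.4 and -0.28 when scaled by the stromal marker list, which was itself lower in KO P2-like cells, at 74033 against 87463 CPM. Lpl was likewise lower in the KO in P1-like cells, at 948 against 1689 CPM, and in P3-like cells, at 1776 against 3305 CPM, with overlapping sets in both classes. Lymphocytes, given above, had the same direction.

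Over all cells Lpl was at 926 CPM in the KO and 2050 CPM in the WT, a log2 ratio of -1.14. Lpl was at 1011, 835, 1004, 917 and 858 CPM in the KO sets. The WT sets held 1559, 1819.7, 2566, 2028 and 2362 CPM. Every KO set lay below every WT set. Stromal cells made up 15.9% of the KO and 29.9% of the WT cells, and with each class of the KO given its share of UMIs in the WT the log2 ratio became -0.70. Cells without leading markers had the same order, with Lpl at 890 CPM in the KO and 2602 CPM in the WT.

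Myeloid cells showed the opposite order of the mice for Lpl, at lower levels. Macrophage-like cells held 407 CPM (333 to 493) in the KO and 186 CPM (89.2 to 342) in the WT, a log2 ratio of 1.11 with an interval of the plain ratio from 1.14 to 4.70. The KO sets were at 474, 312, 391.9, 517 and 343 CPM against 140.4, 0, 341, 275 and 162 CPM in the WT sets. The WT value rested on 10 UMIs and lay at the level of WT B cell-like cells, 221 CPM, so it was not told apart from background. Monocyte-like cells were at 801 CPM in the KO and 414 CPM in the WT, and here too the sets overlapped.

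Angptl4 (chr17:33773750-33781830, minus strand), the inhibitor of the lipase, was highest in P2-like cells at 1137 CPM (1043 to 1238) over both mice. Endothelial-like cells followed at 810 CPM (715 to 914), then P1-like cells at 613 CPM and P3-like cells at 541 CPM, and the last 2 did not differ beyond their intervals. In P2-like cells Angptl4 was at 1171 CPM (1060 to 1292) in the KO and 1048 CPM (879 to 1239) in the WT. The KO sets held 978, 957, 1220.2, 1260.2 and 1483 CPM, and the WT sets 745, 939, 1095, 1288 and 824 CPM. The ranges overlapped, the log2 ratio was 0.16, and the interval of the plain ratio, 0.918 to 1.37, held 1. In these cells a clustering resolution of 0.4 turned the log2 ratio to -0.19, calling cells by markers to -0.06 and leaving out the KO6 sets to -0.11. The interval of Lpl in the same cells lay below 1, and the difference between the ratios of Lpl and Angptl4 was not tested. In P1-like cells Angptl4 was lower in the KO, at 555 against 780 CPM, with a plain ratio of 0.519 to 0.986 and overlapping sets, but this rested on WT4_p2, at 1066 CPM, without which the WT was at 532 CPM.

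Over all cells Angptl4 was lower in the KO, at 386 against 564 CPM. By set it was at 387, 379, 389, 355 and 423 CPM in the KO and 492, 496, 638, 566 and 627 CPM in the WT, with no overlap. The log2 ratio of -0.54 shrank to -0.16 with the class shares of the WT.

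**Figure D3:**
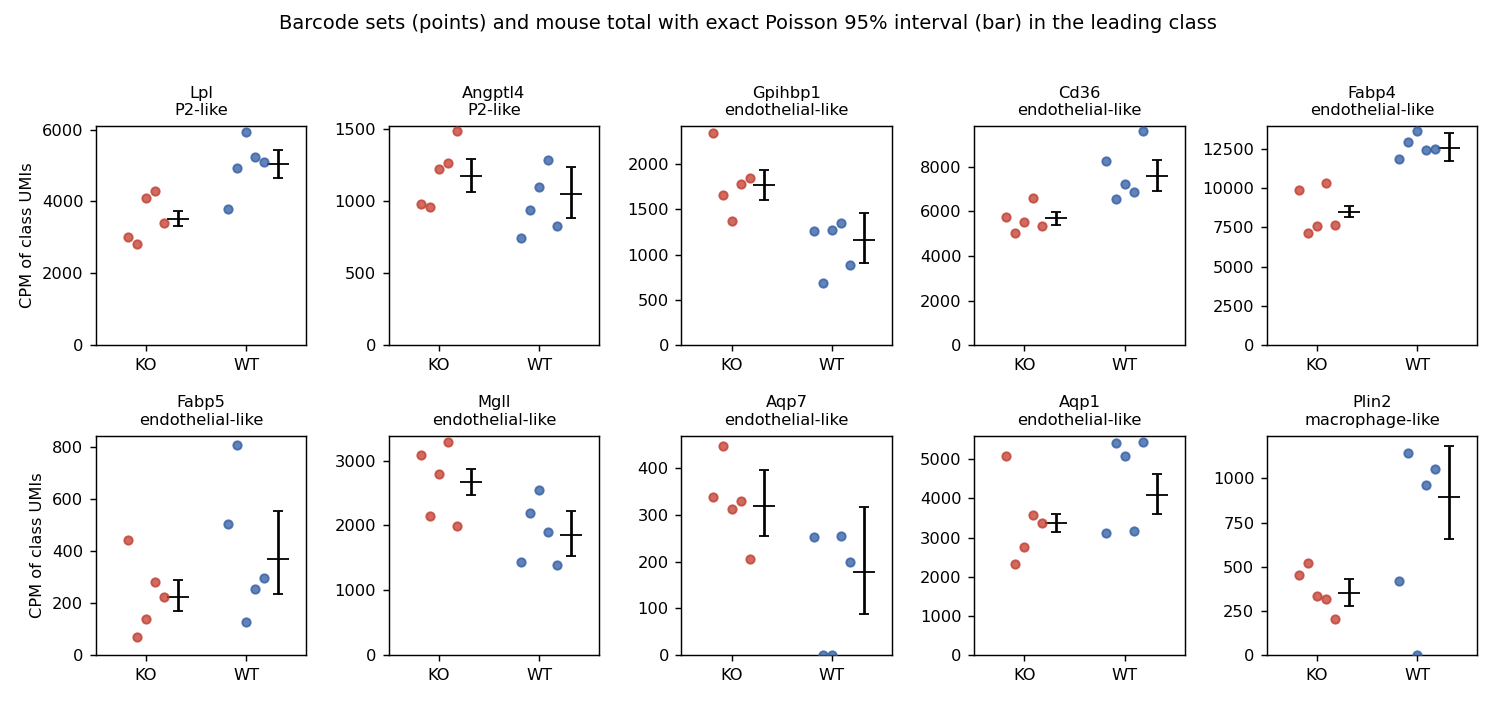
Level (y axis, CPM, linear from 0) of each gene in its leading class by barcode set (points, KO red, WT blue), with the mouse total and its exact Poisson 95% interval in black. Gpihbp1 is higher in all 5 KO sets than in any WT set and Fabp4 lower, while the points of the other 8 genes overlap.

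Gpihbp1 (chr15:75596628-75599481, plus strand), the capillary anchor of the lipase, was low in every named class but the endothelial-like one. It was at 1648 CPM (1511 to 1794) there over both mice, against 153 CPM (56.2 to 334) in pericyte-like cells, the next named class. The KO mouse had the higher level, 1765 CPM (1607 to 1934) against 1159 CPM (907 to 1459). Gpihbp1 was at 2338, 1656, 1373, 1777 and 1844 CPM in the KO sets. The WT sets held Gpihbp1 at 1262, 692, 1272, 1354 and 891 CPM. Each KO set lay above each WT set, although KO6_p1 and WT4_p2 were close. The log2 ratio was 0.61 and the interval of the plain ratio 1.19 to 1.98. Gpihbp1 was the only member higher in all KO sets in this class, against 3.80% of the 3156 genes with at least 20 UMIs there.

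Cd36 (chr5:17781690-17888801, minus strand), the membrane fatty acid transporter, was highest in endothelial-like cells at 6058 CPM (5792 to 6333) over both mice. Pericyte-like cells held 1968 CPM (1553 to 2459) and macrophage-like cells 759.8 CPM (666 to 863), and each step exceeded the intervals. In endothelial-like cells Cd36 was at 5694 CPM in the KO and 7579 CPM in the WT. The KO sets held 5766, 5056, 5526, 6615 and 5344 CPM and the WT sets 8242, 6575, 7253, 6857 and 9605 CPM. A single KO set, KO6_p2, exceeded a single WT set, WT3_p2. The log2 ratio was -0.41, with an interval of the plain ratio from 0.677 to 0.835.

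In macrophage-like cells, where CD36 is known as a scavenger receptor, Cd36 was at 618 CPM (526 to 723) in the KO and 1432 CPM (1130 to 1790) in the WT. The KO sets held 735, 806, 573, 616 and 463 CPM. The WT sets held 1965, 1459, 2387, 963 and 1705 CPM. No KO set reached a WT set, the log2 ratio was -1.21 (plain ratio 0.327 to 0.575), and the level in B cell-like cells was 103 CPM in the KO and 474 CPM in the WT. Cd36 was the only member lower in all KO sets among macrophage-like cells, as were 0.498% of the 2812 genes with at least 20 UMIs in that class. The macrophage marker list was also lower in the KO in these cells, at 19766 against 25887 CPM, and its part in the result was not tested. In P2-like cells Cd36 was at 450 CPM in the KO and 447 CPM in the WT, the latter no higher than in WT B cell-like cells.

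Fabp4 (chr3:10204088-10208576, minus strand), the fatty acid binding protein of capillaries and adipocytes, was at 9279 CPM (8949 to 9618) in endothelial-like cells over both mice. Pericyte-like cells held 4625 CPM (3976 to 5350) and P2-like cells 1332 CPM (1230 to 1440). In endothelial-like cells the KO was at 8497 CPM (8146 to 8859) and the WT at 12551 CPM (11686 to 13464). Fabp4 was at 9844, 7159, 7612, 10300.3 and 7632 CPM in the KO sets. The WT sets held Fabp4 at 11859, 12919.6, 13615, 12443 and 12476 CPM. All KO sets lay below all WT sets, a pattern that 0.760% of the genes tested in this class shared and no other member did. The log2 ratio was -0.56 and the plain ratio 0.624 to 0.736.

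Other classes also had Fabp4 lower in the KO. Pericyte-like cells held 3955 CPM in the KO and 7028 CPM in the WT, in 65 and 24 cells, with overlapping sets, but that log2 ratio of -0.83 became -0.0001 with TMM and 0.012 with DESeq2 size factors. Epithelial-like cells were at 429 and 1246 CPM (plain ratio 0.203 to 0.565). In lymphocytes, read here as free RNA, the difference had the same direction, at 190.3 and 758 CPM in B cell-like and 209.6 and 485 CPM in T cell-like cells. Without WT4_p2 the WT B cell-like value was 424 CPM. The difference between classes was not tested. P2-like cells were at 1323 CPM in the KO and 1356 CPM in the WT, a log2 ratio of -0.03 with a plain interval of 0.818 to 1.17. Macrophage-like cells held 618 CPM in the KO and 409 CPM in the WT, where WT B cell-like cells were at 758 CPM, so the WT value was at background.

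Fabp5 (chr3:10012548-10016607, plus strand), the relative of Fabp4 on the same chromosome, had 187 UMIs in the whole table, far fewer than Fabp4 with 6057. It was at 251 CPM (199.6 to 312) in endothelial-like and 209 CPM (76.7 to 455) in dendritic-like cells over both mice, and these did not differ beyond their intervals. The dendritic-like value joined 2 UMIs in the KO, 76.6 CPM, and 4 UMIs in 8 WT cells, 1546 CPM (421 to 3959). In endothelial-like cells the KO held 223 CPM and the WT 370.1 CPM. The KO sets ranged from 67.1 to 442 CPM and the WT sets from 127 to 807 CPM. They overlapped widely, and the plain ratio, 0.366 to 1.02, held 1.

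Mgll (chr6:88724412-88828360, plus strand), which splits monoglyceride into glycerol and fatty acid, was at 2507 CPM (2338 to 2687) in endothelial-like cells, with pericyte-like cells next at 409 CPM (234 to 664). The KO was higher, at 2664 against 1851 CPM. Mgll was at 3091, 2148, 2798, 3291 and 1998 CPM in the KO sets and in the WT sets at 1429.8, 2192, 2545, 1905 and 1386 CPM. KO5_p3 and KO6_p3 fell within the WT range and the other 3 KO sets above it. The log2 ratio was 0.52, with the plain ratio from 1.18 to 1.77.

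Aqp7 (chr4:41033074-41048139, minus strand), a channel for glycerol, had 131 UMIs in all and was at 292 CPM (236 to 357) in endothelial-like cells. The next named class, pericyte-like cells, rested on 1 UMI, and B cell-like cells held 0 UMIs in both mice. Against the 3 UMIs that a count of 0 allows, the endothelial-like level stood 45.3-fold higher in the KO and 1.87-fold higher in the WT. Taken with the count of 0 itself, the exact conditional lower limit of the plain ratio was 36.0 in the KO and 1.28 in the WT. Aqp7 was at 338, 447, 313, 329 and 205 CPM in the KO sets and in the WT sets at 252, 0, 0, 254 and 198 CPM. The totals were 319 CPM in the KO and 177 CPM in the WT, and the plain ratio, 0.957 to 3.75, held 1, whereas over all cells it was 1.90 (1.09 to 3.59). Of the 50-base stretches in the last 500 bases of Aqp7 transcripts, 18.2% also occur in other genes, so its counts are less certain than those of the others. Plin2 shared 2.38% with 1 gene and the other 8 members none.

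Aqp1 (chr6:55336432-55348555, plus strand), the water channel, was at 3501 CPM (3299 to 3711) in endothelial-like cells and at 486 CPM (292 to 758) in pericyte-like cells. The KO was at 3360 CPM and the WT at 4087 CPM. Aqp1 was at 5091, 2327, 2763, 3571 and 3380.4 CPM in the KO sets. The WT sets held Aqp1 at 3112, 5422, 5089.7, 3174 and 5446 CPM. The ranges overlapped, with KO5_p3 and KO6_p1 below every WT set and WT3_p2 and WT4_p3 above every KO set. The log2 ratio was -0.28 with the plain ratio from 0.714 to 0.949. The 7 capillary members did not move together. Gpihbp1 and Mgll were higher in the KO beyond counting error, Cd36, Fabp4 and Aqp1 lower, and Fabp5 and Aqp7 not separable from equal levels. The signs of the first 5 were kept in each of 19 alternatives of processing and with each of 14 sets or groups of sets left out. Within sets of the same p number Aqp1 was at -0.17 in p1, 0.14 in p2 and -0.85 in p3, so its sign was not kept in p2, while the other 4 kept theirs in all of p1, p2 and p3.

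**Figure D4:**
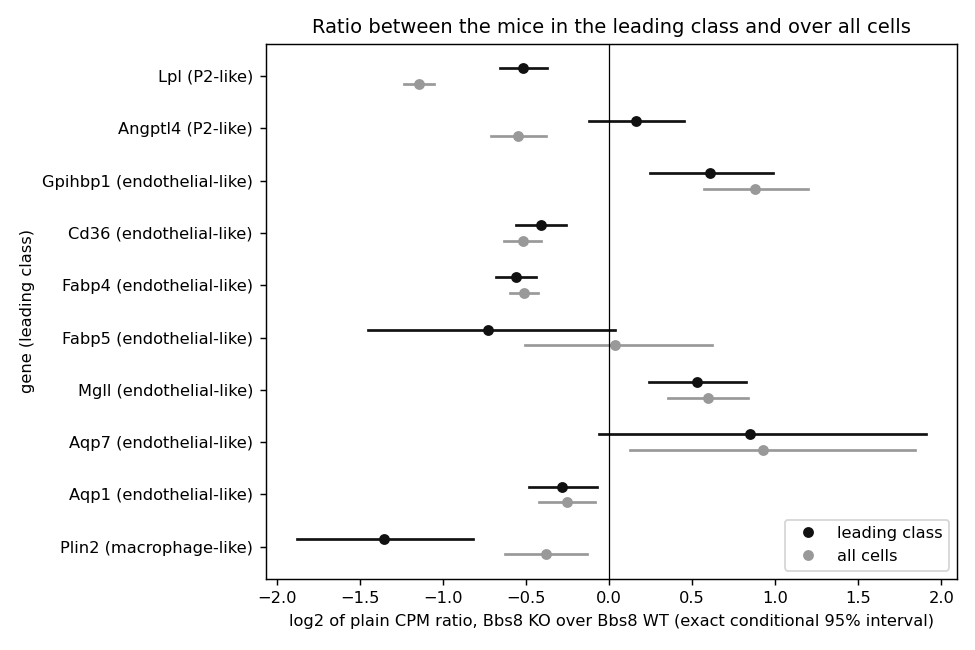
Log2 of the plain CPM ratio of KO over WT (x axis) with exact conditional 95% intervals, for each gene in its leading class (black) and over all cells (grey). Among the endothelial-like genes Gpihbp1 and Mgll lie right of 0 and Cd36, Fabp4 and Aqp1 left of it, while the all-cells value of Lpl lies further left than its P2-like value.

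Plin2 (chr4:86648386-86670060, minus strand), the lipid droplet coat, had the broadest distribution, with 17.8% of its UMIs in macrophage-like and 20.4% in P2-like cells. Macrophage-like cells held 443 CPM (372 to 524), P2-like cells 332 CPM (283 to 389) and monocyte-like cells 331 CPM (258 to 418) over both mice, and neighbours in this order overlapped in their intervals. The macrophage lead came from the WT, where Plin2 was at 893 CPM (658 to 1184), against 348 CPM (280.0 to 429) in the KO. The leading class was thus set by the WT value, which by itself favours a ratio below 1 there. Plin2 was at 451, 520.3, 332, 318 and 206 CPM in the KO sets and in the WT sets at 421, 1146, 0, 963 and 1055 CPM. The sets overlapped through WT3_p1 and WT3_p3, which lay within or below the KO range. The log2 ratio was -1.35 and the plain ratio 0.272 to 0.566. In P2-like cells the order of the mice was the opposite, at 368 CPM in the KO and 239 CPM in the WT, with overlapping sets and a plain ratio from 1.03 to 2.36.

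**Figure D5:**
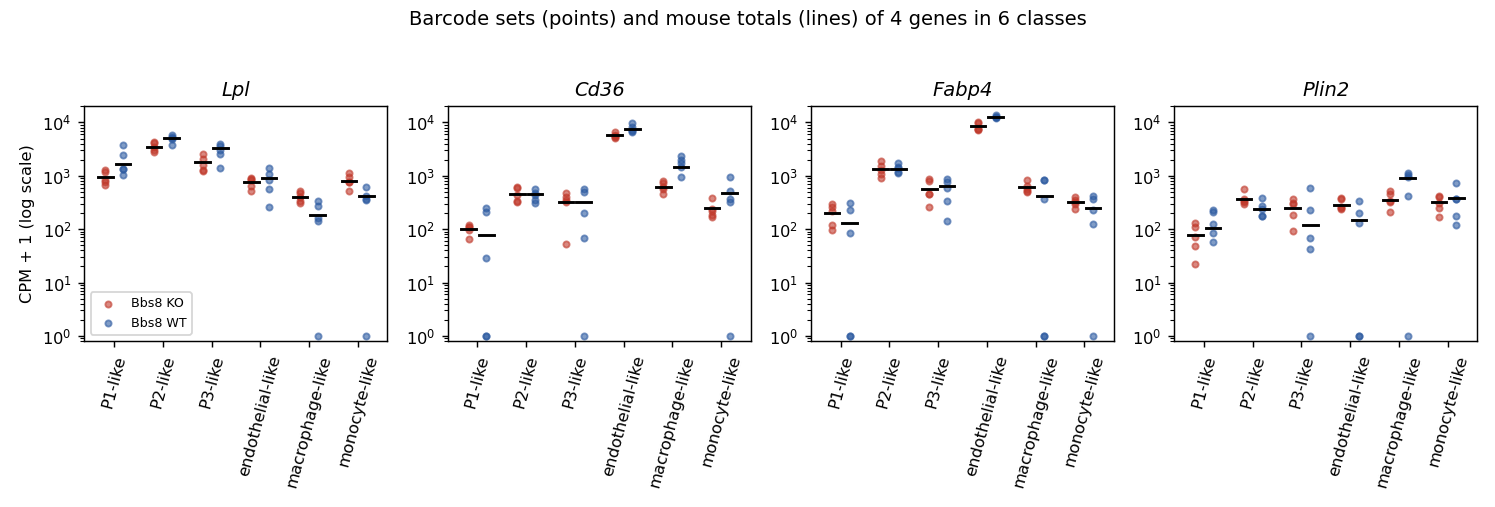
Level of Lpl, Cd36, Fabp4 and Plin2 (y axis, CPM + 1, log scale) in 6 classes, by barcode set (points, KO red, WT blue) and mouse total (black lines). Lpl is lower in the KO in the P1-, P2- and P3-like classes and higher in the macrophage- and monocyte-like classes, whereas Cd36 and Plin2 are lower in KO macrophage-like cells.

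The members past a 2-fold ratio were counted within each class, and counts were not compared between classes. In endothelial-like cells 0 of 10 members were past it, where 16.7% of 3156 genes were at least 2-fold higher and 6.88% at least 2-fold lower in the KO. The members had 81 UMIs or more there and the genes counted as few as 20, so these are not genes of like counts. Plin2 came closest there, at a log2 ratio of 0.97 with a plain ratio of 0.995 to 4.52, and was past 2-fold with TMM and with DESeq2 size factors. In macrophage-like cells 7 members had 20 UMIs, of which Lpl was higher, against 16.0% of genes, and Cd36 and Plin2 were lower, against 5.80%. In that class 0 were higher in all KO sets, against 3.45%. In P2-like cells 8 members had 20 UMIs, and Gpihbp1, Mgll and Aqp1 were at least 2-fold higher, against 12.8% of genes, and 0 lower, against 5.06%. None was higher or lower there in all KO sets, where 3.52% and 1.49% of genes were. Over all cells Lpl was the member at least 2-fold lower, against 3.14% of genes, and Lpl, Cd36 and Angptl4 were lower in all KO sets, against 4.0%, with 0 higher in all of them, against 14.5%. The median log2 ratio of the members was -0.18 in endothelial-like cells beside 0.10 for all genes there, and -0.31 over all cells beside 0.24. It was -0.21 in macrophage-like cells beside 0.07, over 7 members. Among these Mgll reached 20 UMIs only through the KO, with 24 against 4 in the WT, so that median is not read. Nothing is read from the medians of 0.54 in stromal and 0.39 in P2-like cells, beside 0.12 and 0.09, since members with 1 to 4 WT UMIs reached the minimum of 20 there almost only through the KO.

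The members called in P2-like cells were capillary genes at low levels that reached 20 UMIs almost only through the KO, so the calls themselves carry little. Gpihbp1 was at 55.5 CPM in the KO and 7.70 CPM in the WT, the latter 1 UMI, with a plain ratio from 1.15 to 299. Mgll was at 81.8 CPM in the KO and 7.70 CPM in the WT, also 1 UMI. Aqp1 was at 105 CPM (73.7 to 146) in the KO and 30.8 CPM in the WT, the latter 4 UMIs. KO B cell-like cells, the measure of free RNA, held Gpihbp1 at 32.9 CPM and Mgll and Aqp1 each at 51.7 CPM. The plain ratio of KO P2-like over KO B cell-like cells was 0.802 to 3.64 for Gpihbp1 and 0.873 to 2.90 for Mgll, so these were not told apart from background, and 1.17 to 3.63 for Aqp1. In all stromal cells together Aqp1 was at 105 against 26.2 CPM, with every KO set higher, as were 4.14% of genes, and Fabp5 joined the other 3 past 2-fold, against 11.9%. These genes too reached 20 UMIs mainly through the KO. Aqp1 had 70 KO and 7 WT UMIs, Mgll 88 and 14, Gpihbp1 40 and 1 and Fabp5 20 and 2. No member was lower in all KO sets of the stromal cells, against 1.33% of genes. Marker lists of cells that these classes should not contain moved the same way in P2-like cells, where the endothelial list was at 406 CPM in the KO and 123 in the WT, the B cell list at 672 and 162 and the T cell list at 526 and 216. Their part in these ratios was not tested.

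The endothelial-like class joined a pair of clusters. The purer one, of 328 KO and 126 WT cells, held the endothelial list at 13890 CPM in the KO and 11774 CPM in the WT and the stromal list at 3345 and 4061 CPM. Lists of further cells differed between the mice in it, with the pericyte list at 1235 and 2236 CPM, the B cell list at 838 and 183 CPM and the T cell list at 565 and 297 CPM, and their part was not tested. The other, of 321 KO and 66 WT cells, held the endothelial list at 5032 and 4095 CPM and the stromal list at 12256 and 16760 CPM. In the purer cluster alone Fabp4 was at 10830.4 CPM in the KO and 15105 CPM in the WT, Cd36 at 7435 and 9332 CPM, and Gpihbp1 at 2309 and 1392 CPM. Mgll was there at 3594 CPM in the KO and 2533 CPM in the WT, and Aqp1 at 4525 and 4906 CPM. The order of the mice was the one of the whole class, but the plain ratio of Aqp1, 0.791 to 1.08, held 1 in this cluster, while those of the other 4 did not. In the other cluster the plain ratio was 2.00 to 19.7 for Mgll, which rested on 4 WT UMIs, and 0.595 to 0.900 for Fabp4. There it held 1 for Gpihbp1, at 0.779 to 3.04, for Cd36, at 0.640 to 1.13, and for Aqp1, at 0.480 to 1.007.

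Shares of cells with a UMI were also taken at even depth. With each cell thinned to 200 UMIs, which kept 468 KO and 142 WT endothelial-like cells, Fabp4 was seen in 65.2% of KO cells (60.7 to 69.5) and 81.7% of WT cells (74.3 to 87.7). Without thinning the shares were 74.3% and 84.9%. Gpihbp1 was seen in 25.2% of KO and 14.8% of WT cells after thinning, and in 34.5% and 20.8% before. Among thinned B cell-like cells Fabp4 was found in 3.60% of KO and 8.22% of WT cells, and Gpihbp1 in 0.674% and 0 of 73, which allows up to 4.11%. In P2-like cells Lpl was seen in 40.7% of KO and 51.3% of WT cells after thinning and in 52.1% and 67.7% before, and in macrophage-like cells Cd36 in 11.9% and 21.9% after and 20.03% and 32.8% before. These 4 had the order of the mice that their CPM had, before and after thinning, but not every share did. In endothelial-like cells Lpl was seen in 21.1% of KO and 18.8% of WT cells before thinning and in 12.8% and 16.2% after. Angptl4 was seen there in 12.8% and 10.6% after thinning at 796 and 869 CPM, and in P3-like cells in 7.5% and 9.82% at 602 and 434 CPM, so no order is read from these shares. At least 1 of the 10 genes was seen in 88.2% of thinned KO and 93.7% of WT endothelial-like cells, against 9.10% and 13.7% of B cell-like cells.

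The genes most like each member were taken by correlation over 24 points, 12 named classes in each mouse, which share libraries and depth, so the values are descriptions. Cd36 and Fabp4 were each other's nearest gene, at r = 0.91. Gpihbp1 was nearest to Cldn5 (r = 0.91) and Cdh5, both endothelial junction genes, and Aqp7 to Kdr (r = 0.90), a receptor for vascular endothelial growth factor, and Cdh5. Aqp1 was nearest to Adgrl4 (r = 0.91) and Plvap, and Mgll to Hspa12b (r = 0.89) and Rbp7. Lpl was nearest to Sparc (r = 0.90), a matrix-associated glycoprotein, and Angptl4 to Col4a2 (r = 0.94) and Lamb1, both of the basement membrane. Plin2 was nearest to Grn (r = 0.83) and Hexa, which act in lysosomes, and Fabp5 to Dock9 (r = 0.83). Lpl and Angptl4 correlated at r = 0.78.

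Of 40 further genes of lipid handling, 39 were in the table. In P2-like cells 10 of them had 20 UMIs, 0 were at least 2-fold higher and 2 lower in the KO, against 12.8% and 5.06% of genes. These were Vldlr, a receptor that works with LPL in lipoprotein uptake, at 129 CPM in the KO and 401 CPM in the WT, and Rxra, the partner of the PPARs, at 38.0 and 84.7 CPM. The interval of the plain ratio was 0.210 to 0.489 for Vldlr and 0.185 to 1.10 for Rxra, and sets overlapped for both. In stromal cells as a whole, Hilpda, an inhibitor of lipolysis, was at 32.9 CPM in the KO and 3.75 CPM in the WT, and Pparg at 37.4 and 3.75 CPM. Both had 1 WT UMI and reached the minimum only through the KO, which largely sets these calls, 2 of 18 genes against 11.9%. Every KO set lay above every WT set, as for 4.14% of genes. KO B cell-like cells held Hilpda at 4.70 CPM (0.569 to 17.0) and Pparg at 7.05 CPM (1.45 to 20.6). The plain ratio of KO over WT was 1.42 to 362 for Hilpda and 1.63 to 409 for Pparg, and over all cells Pparg was at 31.5 and 32.1 CPM. In stromal cells Rxra was lower by more than 2-fold, against 2.87% of genes.

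In endothelial-like cells 11 of the further genes had 20 UMIs, and 0 were past 2-fold higher and 2 lower, against 16.7% and 6.88% of genes. These were Pnpla2, the triglyceride lipase of lipid droplets, at 69.2 CPM in the KO and 161 CPM in the WT, and Gpat4, an enzyme of glycerolipid synthesis, at 76.9 and 177 CPM. Both had intervals of the plain ratio that held 1. Cav1, a caveolar protein, was at 1042 CPM in the KO and 917 CPM in the WT, and Cavin1, its partner, at 2015 and 3411 CPM. The sets overlapped for Cav1 and for Cavin1, which were named after their values were seen. In macrophage-like cells 7 had 20 UMIs, and Sel1l, needed for the folding of LPL, was higher in the KO at 133 against 18.6 CPM, the latter 1 UMI, where 16.0% of genes were past 2-fold higher. It too reached the minimum only through the KO, and KO B cell-like cells held 42.3 CPM (25.1 to 66.8). Over all cells 31 had 20 UMIs, of which Hilpda was past 2-fold higher, against 17.3% of genes, and Vldlr and Rxra were lower, against 3.14%.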

How the data were processed

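The authors deposited 1 table of UMI counts, not normalised, for 14623 genes and 10914 cells. Per the study's methods and the submitters' processing notes, reads were demultiplexed with bcl2fastq (2.20), aligned with STAR to mm10, counted with dropSeqPipe, evened in depth and filtered on genes and mitochondrial share. Whether the counts precede the depth step is not given in the sources used here.

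Seurat 5.3.0 was used for anchor integration of the barcode sets (2000 features, 30 dimensions, resolution 0.8), without the 10 genes and 40 pathway genes among the features, and clusters under 60 cells were left out. A cluster took the class whose markers had a mean log2 fold above 1 (0.5 among stromal cells). Doublets were kept. Scrublet marked only 0.275% of cells, and whether it missed doublets was not tested. The 651 cells with the highest scores were left out as an alternative. UMIs were summed per mouse and class. Named genes are the members, pathway genes with at least 20 UMIs in a class and past 2-fold there, otherwise the 2 with most UMIs, and the 3 nearest genes by correlation. Cav1 and Cavin1 fall outside this rule and were named after their values were seen. No test was made. Ratio intervals were checked on simulated counts with Poisson error only. No spread between barcode sets was simulated, so the check says nothing of that spread. Members and lists were chosen with earlier results of these data known.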

Additional observations from a re-analysis of the deposited data

Results flagged for a closer look

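Among 38 groups of 5 barcode sets searched for a set far from the rest, of which chance alone gives about 1 in 20, 2 had one, both over all cells of the KO and both in KO6_p2. Cd36 was at 983 CPM in that set, with the other 4 KO sets from 778 to 819 CPM, and still below every WT set. Mgll was at 418 CPM in it, with the other KO sets from 324 to 344 CPM. KO6_p2 is also the set with a cluster of its own.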

How the results depend on the processing

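With 1 mouse per genotype, depth and number of animals set the limits: members with few UMIs (Fabp5, Aqp7) had intervals that held equal levels in endothelial-like cells, and no difference could be tied to genotype. Across 651 recomputed values, 588 stayed within the counting interval of the first value or within 1.5 times the first count. The sign turned in 15. Of these, 2 were Aqp1 over all cells, first at -0.25, which was 0.25 with cells of at least 200 genes and 0.0674 without the WT3 sets. The other 13 had first values whose intervals held equal levels, 10 of them Fabp5 over all cells and 3 Angptl4 in P2-like cells. Leaving out the 651 cells with the highest doublet scores kept every member's ratio within its interval. The cause was not tested for any change given here.

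The set codes were not explained in the labels. The study's methods describe a pair of arrays per sample, each amplified in several pools. The codes of both mice hold p1, p2 and p3. Sets with the same number did not deviate together, with correlations over 3659 genes of -0.02, 0.03 and -0.02 for p1, p2 and p3, so the numbers were not taken to pair them. The mean of the ratios within p1, p2 and p3 (a replicate block, chosen after seeing the data) was -0.40 for Lpl in P2-like cells, and it moved Cd36 over all cells from -0.52 to -0.66. It turned the sign of no member but Fabp5 over all cells, at -0.12. The mean of the ratios within pairs of KO5 or KO6 with WT3 or WT4, which is the same whichever code goes with which, was -0.55 for Lpl in P2-like cells and moved no member beyond its interval. The titles also number p1 and p2, but no code was matched to a title. Scaling by marker lists, the class shares of the WT, the lower naming threshold, the subtraction of background, the removal of an endothelial-like cluster and of the groups of sets were also chosen after seeing the data.

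In P2-like cells, Lpl moved from -0.52 to -0.67 with DESeq2 size factors, -0.96 at resolution 0.4, -0.80 with cells called by markers and -0.28 scaled by the stromal list, and Angptl4 from 0.16 to -0.19 at resolution 0.4. In endothelial-like cells Cd36 moved from -0.41 to -0.67 in thinned cells, and Fabp4 from -0.56 to -0.83 in thinned cells, -0.70 without integration and -0.71 scaled by the endothelial list. Over all cells, TMM, DESeq2 size factors and thinning gave -1.29, -1.31 and -1.24 for Lpl, -0.67, -0.69 and -0.76 for Cd36, and -0.66, -0.68 and -0.72 for Fabp4, and thinning gave -0.52 for Aqp1. Cells of at least 200 genes gave -0.17 for Cd36, -0.24 for Fabp4 and 0.87 for Mgll. The class shares of the WT gave -0.70 for Lpl and -0.16 for Angptl4.

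Leaving out a set or a group of sets gave -0.78 to -0.36 for Lpl in P2-like cells, and over all cells -1.20 to -1.05 for Lpl, -0.68 to -0.41 for Cd36, -0.65 to -0.44 for Fabp4, 0.13 to 0.95 for Mgll and -0.65 to 0.0674 for Aqp1. The Lpl extremes in P2-like cells were without KO6 and without KO5. The extremes of Mgll were without WT4 and without WT3.

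Counts past 2-fold, higher and lower in the KO, were 1881 and 342 over all cells, 770 and 186 in stromal, 518 and 204 in P2-like, 528 and 217 in endothelial-like and 451 and 163 in macrophage-like cells. With at least 10 UMIs they were 1536 higher in stromal, 1284 and 380 in P2-like, 1347 and 443 in endothelial-like and 1199 and 405 in macrophage-like cells. With at least 50 UMIs they were 1093 higher over all cells, 164 and 87 in stromal, 101 and 51 in P2-like, 107 and 29 in endothelial-like and 74 and 34 in macrophage-like cells. A pseudocount of 20 CPM gave 355 and 158 over all cells, 365 and 79 in stromal and 341 and 121 in P2-like cells. In stromal cells TMM gave 295 lower and DESeq2 size factors 299.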
